A study of Mus musculus with 6 samples.

Results

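DNA replication and S phase were followed through 41 genes in NSC-34 cells, with and without knockdown (KD) of Qk, the gene of the Quaking family of RNA-binding proteins. The genes were chosen by name for their known part in copying DNA, from origin licensing to the packaging of the new strands. Earlier results of these data were known when the choice was made. All 41 were found among the 23038 genes listed for each library. NSC-34 is a mouse motor neuron-like line made by fusing neuroblastoma cells with embryonic spinal cord cells, and it divides in culture. Poly-A RNA was sequenced from 3 cultures transfected with control siRNA (siNC) and 3 transfected with siRNA against Qk (siQk), with the same line in both groups. The study used 3 different siRNAs against Qk, and the siQk libraries carry the same numbers, though no label ties a library to an siRNA. A different siRNA and a different culture cannot be told apart in these libraries, siQk replicate 2 included. The comparison asks how transcript levels differ once Qk is depleted.

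DNA replication begins at origins that are loaded with the MCM2-7 ring in G1, when Cdc6 and Cdt1 help to place it on DNA. In S phase the ring is activated as a helicase with the GINS complex and Mcm10, primase and the polymerases synthesise the strands, the clamp Pcna holds the polymerases on DNA, and Fen1 and Lig1 join the pieces of the lagging strand. Ribonucleotide reductase, thymidylate synthase and thymidine kinase supply the nucleotides. Many of these genes are transcribed together at the G1/S boundary by E2F factors, once cyclin E and its kinase have helped to release E2F from the retinoblastoma protein, and postmitotic motor neurons normally switch the programme off. Quaking proteins bind RNA and act in splicing, stability, export and translation of their targets.

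Qk (Entrez 19317, GRCm38 chromosome 17, 10202601 to 10319854, minus strand), the target of the siRNA, had 9.67, 8.18 and 14.9 RPKM in siNC and 1.39, 1.71 and 1.10 RPKM in siQk. Gene positions are on GRCm38 throughout. Values per library are given in this order, replicates 1 to 3 of siNC and then replicates 1 to 3 of siQk, in RPKM, a level per length of exon and per library total. The Qk mean in siQk was 12.8% of that in siNC, with a log2 fold change of -3.00 (SE 0.34) and an adjusted p of 0.0149 (edgeR quasi-likelihood F test, Benjamini-Hochberg over 12665 genes). Qk was the 1 gene that passed the thresholds of the test (p under 0.01 and adjusted p under 0.1), and without siNC replicate 1 it did not, at a log2 fold change of -3.09 and an adjusted p of 0.125. By the edgeR exact test 5 genes passed, and by DESeq2 19. The study, with edgeR and the same thresholds, also reported L3hypdh, Daam2 and Snap23 as lower, and does not say which edgeR test it used. Library totals ran from 43000503 to 53565950 counts. Of the motor neuron and neuron markers, 10 of 15 were tested, with 6 above 0, 4 below 0 and a median log2 fold change of 0.15. Tubb3 and Nefl, which encode neuronal cytoskeletal proteins, averaged 269 and 55.6 RPKM in siNC, while Chat, Slc5a7, Mnx1, Lhx3 and Stmn2 stayed under 1 RPKM in each library. Isl1, a transcription factor of motor neurons named after its values were seen, had 4.83, 4.75 and 4.80 RPKM in siNC and 9.63, 7.80 and 8.33 RPKM in siQk. Its groups did not overlap, at a log2 fold change of 0.82 (SE 0.10) and an unadjusted p of 0.00101 (edgeR, adjusted p of 1). The summed level of the 15 motor neuron and neuron markers was lowest in siNC replicate 3, at 308 RPKM, and lay between 440 and 612 RPKM elsewhere. Summed levels were 5.83 to 8.80 RPKM for 8 oligodendrocyte markers, 0.140 to 0.360 RPKM for 8 astrocyte and microglia markers, with 2 of them at 0 in every library, and 11.4 to 15.6 RPKM in siNC against 7.82 to 10.7 RPKM in siQk for 8 fibroblast and endothelial markers, with 1 at 0 in every library. The part of these markers in the results was not tested.

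None of the 41 replication genes passed the thresholds, against 1 of 12665 genes tested (0.00790%), and the adjusted p was 1 for each of them (edgeR quasi-likelihood test, Benjamini-Hochberg). The edgeR exact test and DESeq2 also called 0 members. Their log2 fold changes were nonetheless unevenly signed. The estimate was above 0 for 36 members (87.8%) and below 0 for 5 (Rrm2, Rfc1, Rfc5, Ccne1 and E2f2, of which Rrm2 and Ccne1 lay above 0 when scaled by total counts), against 50.8% above 0 over all genes tested. The median of the members was 0.21 on the log2 scale, a 1.16-fold higher level in siQk, with an interquartile range of 0.11 to 0.34, against a median of 0.0034 over all genes tested. Whether more cells in S phase or more RNA of these genes per cell lies behind such a difference cannot be told apart in bulk RNA. The members share regulation and cell cycle phase, so they are not independent of each other. They were also chosen with earlier results of these data known, and no test was made over the list.

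At an unadjusted p under 0.05, 8 members had higher values in siQk and 0 had lower values. The same threshold was met by 1.20% of the genes tested in the higher direction and by 1.69% in the lower direction. The 8 were Cdc6, Mcm3, Rpa2, Mcm4, Pcna, Gins2, Rfc3 and Fen1, and they belong to 6 of the 10 roles used here to order the members. For 15 members each siQk library lay above each siNC library in RPKM, which held for 5.35% of the genes tested, and for 0 members the order was the opposite, against 3.49%. The number of members at an unadjusted p under 0.05 moved with single libraries. So did the share over all genes tested, in either direction, which was 2.89% with all libraries. Without siNC replicate 3 there were 2 members, against 4.43% of all genes. Without siQk replicate 2 there were 2, of which 1 was lower in siQk, against 2.72%. There were 3 without siNC replicate 1, against 4.26%, and 3 without siQk replicate 3, against 2.3%.

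**Figure D1:**
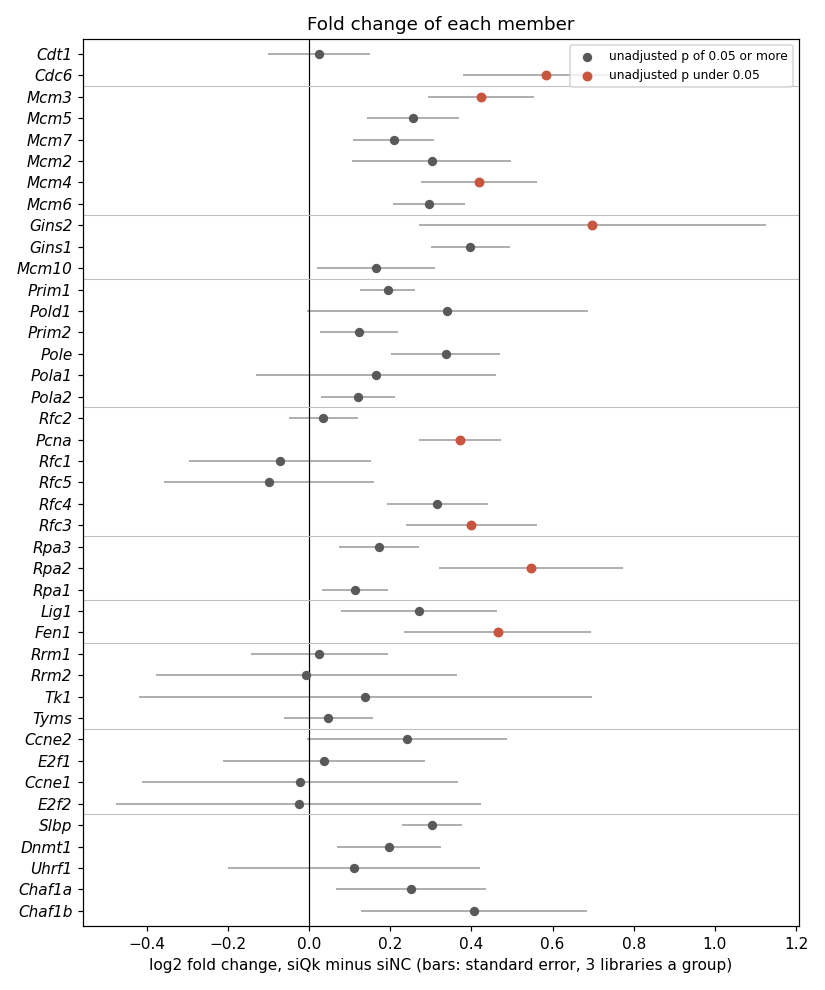
Log2 fold change of siQk over siNC (x axis) for each of the 41 members (y axis, grouped by role, horizontal lines between roles). Points are estimates from 3 libraries a group, bars are standard errors, and red points mark the 8 members at an unadjusted p under 0.05, which all lie to the right of 0.

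The libraries of each group were unequal. Members took 0.485%, 0.565% and 0.471% of all counts of the siNC libraries, and 0.562%, 0.608% and 0.607% of those of the siQk libraries. The group means were 0.507% ± 0.0508 and 0.592% ± 0.0264 (SD, n = 3), a ratio of 1.17, and siNC replicate 2 lay inside the siQk range. Relative to the mean of the 6 libraries, the median member stood at -0.14, 0.0018 and -0.22 in siNC and at 0.036, 0.15 and 0.16 in siQk (log2 CPM). In RPKM, siNC replicate 3 held the lowest value of 23 members (56.1%), against 30.9% of all genes tested. siQk replicate 2 held the highest RPKM of 20 members (48.8%), against 28.8% of all genes. Leaving out 1 library at a time gave medians from 0.17 (without siNC replicate 3) to 0.31 (without siNC replicate 2), and with both siNC replicate 3 and siQk replicate 2 left out, 35 members were above 0 and 0 were called.

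**Figure D2:**
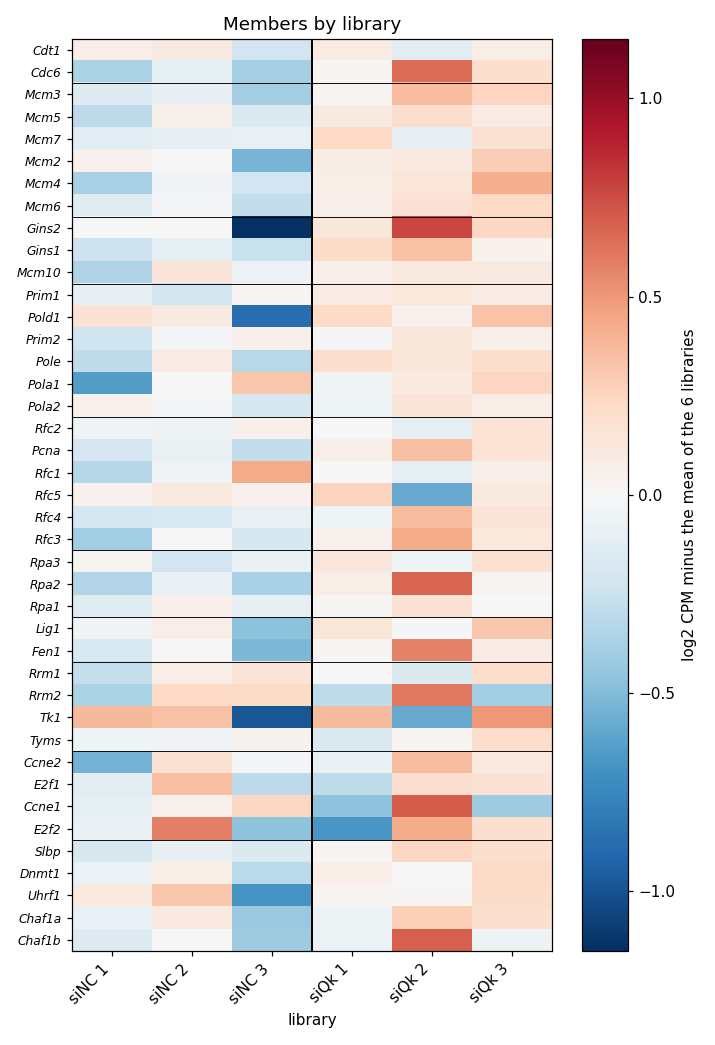
Log2 CPM of each member in each library minus the mean of the 6 libraries, as colour (red above, blue below), with members in rows grouped by role and libraries in columns. siNC replicate 3 is bluest for Gins2, Tk1, Pold1 and Uhrf1, and siQk replicate 2 is reddest for Gins2, Ccne1, Rpa2 and Chaf1b.

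Levels of the members spanned 7.41 RPKM for Pola2, a subunit of DNA polymerase alpha, to 138 RPKM for Rpa3, the smallest subunit of replication protein A (means of 6 libraries). No member had fewer than 738 counts in any library, so counting error was small beside the spread between libraries. The ratio of the highest to the lowest library ran from 1.18 for Rfc2 to 3.999 for Gins2. Widest within one group were Tk1 in siNC (SD of log2 CPM 0.770), Gins2 in siNC (0.660) and Ccne1 in siQk (0.653).

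**Figure D3:**
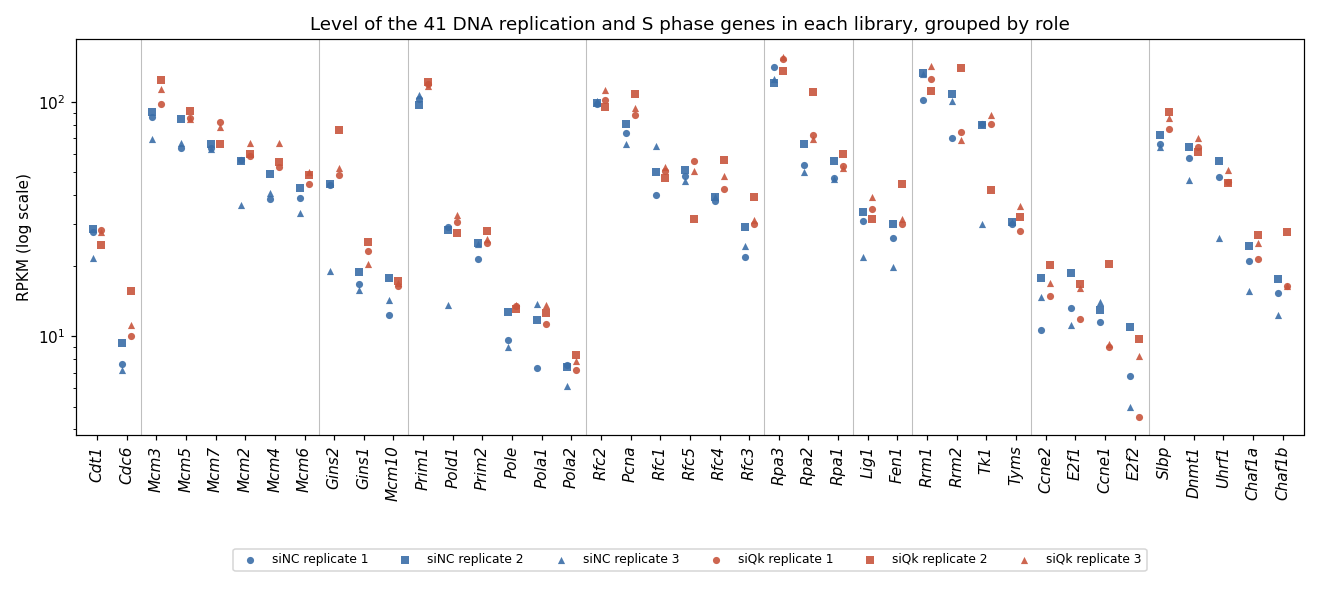
RPKM of each member in each library on a log axis, members grouped by role and ordered by mean level within a role, siNC in blue and siQk in red with a marker for each replicate number. Rpa3 has the highest mean (138 RPKM), and the siNC replicate 3 points of Gins2, Pold1, Tk1 and Uhrf1 sit well below the other siNC points.

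Origin licensing was represented by Cdc6 and Cdt1. Cdc6 (Entrez 23834, chromosome 11, 98907801 to 98923940, plus strand), the ATPase that recruits MCM2-7 to the origin recognition complex, had 7.59, 9.31 and 7.19 RPKM in siNC and 9.996, 15.5 and 11.2 RPKM in siQk. Each siQk library lay above each siNC library, with siQk replicate 2 the highest. The means were 8.03 ± 1.13 RPKM for siNC against 12.2 ± 2.90 RPKM for siQk (SD, n = 3), and the log2 fold change was 0.58 (SE 0.21), the smallest unadjusted p among the members at 0.0165 (edgeR quasi-likelihood test, adjusted p of 1). Without siQk replicate 2 the Cdc6 estimate was 0.38. Cdt1, the other loading factor, which geminin inhibits, had 27.7, 28.8 and 21.6 RPKM in siNC and 28.3, 24.4 and 27.9 RPKM in siQk. The Cdt1 ranges overlapped and the log2 fold change was 0.024 (SE 0.13), or -0.072 without siNC replicate 3, so the estimates of this pair of loading factors were unequal, a difference that was not tested.

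The promoter windows of Cdc6, Mcm3 and Rfc3 are printed because these are the members at an unadjusted p under 0.05 whose window holds an E2F-type letter string. Each runs from 250 bases before to 50 bases after the RefSeq start, 5′ to 3′ on the gene's strand (RefSeq, GRCm38.p6), with the E2F-type letters in capitals. They are chr11:98907901-98908200 (plus strand) for Cdc6, chr1:20820263-20820562 (minus strand) for Mcm3 and chr5:151651159-151651458 (minus strand) for Rfc3.
Cdc6: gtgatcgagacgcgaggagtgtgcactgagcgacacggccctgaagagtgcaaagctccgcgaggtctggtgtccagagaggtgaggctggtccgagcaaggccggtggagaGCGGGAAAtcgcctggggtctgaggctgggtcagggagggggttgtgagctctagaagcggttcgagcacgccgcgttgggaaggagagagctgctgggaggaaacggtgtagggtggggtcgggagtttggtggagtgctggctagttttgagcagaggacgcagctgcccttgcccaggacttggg
Mcm3: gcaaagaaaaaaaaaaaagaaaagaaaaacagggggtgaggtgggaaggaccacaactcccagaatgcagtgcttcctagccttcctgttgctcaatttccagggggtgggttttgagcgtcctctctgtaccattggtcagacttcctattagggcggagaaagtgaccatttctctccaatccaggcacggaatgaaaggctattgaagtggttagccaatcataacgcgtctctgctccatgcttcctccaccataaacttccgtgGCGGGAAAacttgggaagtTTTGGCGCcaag
Rfc3: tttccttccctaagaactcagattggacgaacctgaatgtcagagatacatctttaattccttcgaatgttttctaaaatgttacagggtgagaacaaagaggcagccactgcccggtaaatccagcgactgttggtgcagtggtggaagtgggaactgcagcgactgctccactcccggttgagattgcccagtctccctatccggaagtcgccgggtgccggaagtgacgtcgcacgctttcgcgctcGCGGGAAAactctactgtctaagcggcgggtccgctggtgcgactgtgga

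The letters searched were TTTGGCGC and TTTCCCGC on either strand, 2 exact strings of the kind E2F factors bind. Counted from the RefSeq start, the string begins 138 bases upstream in Cdc6, at the first base of the transcript in Rfc3, and at bases 20 and 39 of the transcript in Mcm3. The GENCODE gene of Cdc6, whose position is given above, begins further upstream and contains the whole window. A window was given for 34 of the 41 members, and 11 of them (32.4%) held one of the strings: Cdc6, Cdt1, Dnmt1, E2f2, Mcm3, Mcm5, Mcm6, Mcm7, Pola1, Pold1 and Rfc3. The share was 3.47% of 9053 tested genes with a window and 1.80% of 27025 genes in all. CCAAT on either strand, the letters bound by NF-Y, stood in 21 of the 34 (61.8%), against 43.7% of the tested genes with a window and 41.1% of all genes. Among the 11 members with the E2F-type strings the median log2 fold change was 0.26 and 10 were above 0. The 23 with a window and no such string had a median of 0.17 with 19 above 0, and the 7 without a window (Ccne2, Gins1, Gins2, Mcm4, Pole, Prim2 and Rfc2) had 0.34 with 7 above 0. The members above 0 were thus not limited to those with the strings. Exact strings miss variants of the site, and a match does not show binding.

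All 6 subunits of the MCM2-7 helicase had a log2 fold change above 0, from 0.21 for Mcm7 to 0.42 for Mcm3, with a median of 0.30. Mcm3 (Entrez 17215, chromosome 1, 20802968 to 20820312, minus strand), the most abundant of them, had 85.98, 90.6 and 69.2 RPKM in siNC and 98.2, 123 and 113 RPKM in siQk. The groups did not overlap, the means were 81.9 ± 11.2 RPKM for siNC against 112 ± 12.6 RPKM for siQk (SD, n = 3), and siNC replicate 3 was the lowest library. Its log2 fold change was 0.42 (SE 0.13) with an unadjusted p of 0.0226 (edgeR, adjusted p of 1). Mcm4 (Entrez 17217, chromosome 16, 15623897 to 15637400, minus strand), one of the catalytic subunits of the ring, had 38.3, 49.4 and 40.8 RPKM in siNC and 52.8, 55.4 and 66.5 RPKM in siQk. Again the groups were apart, with a log2 fold change of 0.42 (SE 0.14) and an unadjusted p of 0.0289 (edgeR, adjusted p of 1). Leaving out 1 library took Mcm3 as low as 0.34 (without siNC replicate 3) and Mcm4 as low as 0.30 (without siQk replicate 3).

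Mcm2, which also binds parental histones at the fork, had 56.5, 55.8 and 36.2 RPKM in siNC and 58.7, 60.1 and 66.7 RPKM in siQk. siNC replicate 3 stood far under the other siNC libraries, and the log2 fold change of 0.30 (SE 0.20) was 0.14 without it. Mcm6 had 38.7, 42.9 and 33.7 RPKM in siNC and 44.8, 48.6 and 50.2 RPKM in siQk and a log2 fold change of 0.30 (SE 0.09). It was the lowest of the 6 subunits in RPKM, and its groups did not overlap. Mcm5 had 63.8, 84.1 and 66.96 RPKM in siNC and 84.9, 91.5 and 84.1 RPKM in siQk, with a log2 fold change of 0.26 (SE 0.11), and siNC replicate 2 lay within the siQk range. Mcm7 had 63.4, 66.4 and 62.6 RPKM in siNC and 81.8, 65.9 and 78.4 RPKM in siQk and a log2 fold change of 0.21 (SE 0.10), with siQk replicate 2 inside the siNC range. Per length, the subunits of this one-to-one ring ranged from 43.1 RPKM (Mcm6) to 96.8 RPKM (Mcm3) in the mean of 6 libraries, a ratio of 2.24.

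Helicase activation factors were also above 0. Gins2 (Entrez 272551, chromosome 8, 120578633 to 120589304, minus strand), a subunit of the GINS complex that joins MCM2-7 and Cdc45, had 44.1, 44.6 and 19.02 RPKM in siNC and 48.6, 76.1 and 51.97 RPKM in siQk. Its log2 fold change of 0.70 (SE 0.43) was the highest of the 41, and so was its standard error but for those of Tk1 and E2f2, with an unadjusted p of 0.046 (edgeR, adjusted p of 1). The value in siNC replicate 3 was far below the rest, and without that library the log2 fold change was 0.41. Gins1, another subunit of the same complex, had 16.7, 18.7 and 15.8 RPKM in siNC and 22.99, 25.2 and 20.3 RPKM in siQk. Its groups were apart with a narrow spread, and the log2 fold change 0.40 (SE 0.10) had an unadjusted p of 0.0513 (edgeR, adjusted p of 1). Mcm10, which helps to activate the helicase, had 12.3, 17.7 and 14.3 RPKM in siNC and 16.4, 17.2 and 16.8 RPKM in siQk, with siNC replicate 2 the highest library and a log2 fold change of 0.17 (SE 0.15), which was 0.046 without siNC replicate 1 and 0.29 without siNC replicate 2.

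The primase and polymerase genes had log2 fold changes of 0.12 to 0.34 and none at an unadjusted p under 0.05. Prim1, the catalytic primase subunit and the most abundant of this role, had 103, 96.9 and 107 RPKM in siNC and 119, 122 and 117 RPKM in siQk. The siQk libraries lay close together above those of siNC, at a log2 fold change of 0.19 (SE 0.068). Pole, the catalytic subunit of the leading strand polymerase epsilon, had 9.60, 12.7 and 8.98 RPKM in siNC and 13.5, 13.1 and 13.5 RPKM in siQk, also with separate groups and a log2 fold change of 0.34 (SE 0.13). Pold1, the catalytic subunit of polymerase delta on the lagging strand, had 29.1, 28.5 and 13.5 RPKM in siNC and 30.7, 27.4 and 32.8 RPKM in siQk. The estimate of 0.34 (SE 0.35) rested on siNC replicate 3, and was 0.075 without it. Pola1, the catalytic subunit of polymerase alpha, had 7.32, 11.7 and 13.7 RPKM in siNC and 11.3, 12.6 and 13.6 RPKM in siQk. Here siNC replicate 1 was low and siNC replicate 3 the highest library, the opposite order to Pold1, and the log2 fold change was 0.16 (SE 0.30), or -0.061 without siNC replicate 1 and 0.40 without siNC replicate 3. Pola2 had 7.57, 7.40 and 6.15 RPKM in siNC and 7.20, 8.33 and 7.81 RPKM in siQk and a log2 fold change of 0.12 (SE 0.092). Prim2, the large primase subunit, had a log2 fold change of 0.12 (SE 0.10), and both of these had overlapping groups. Leaving out 1 library took Pola2 as low as 0.055 (without siNC replicate 3) and Prim2 as low as 0.046 (without siNC replicate 1).

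Among the clamp and its loader, Pcna and Rfc3 were at an unadjusted p under 0.05. Pcna (Entrez 18538, chromosome 2, 132249162 to 132253314, minus strand), the sliding clamp, had 73.6, 80.6 and 66.1 RPKM in siNC and 87.9, 108 and 93.8 RPKM in siQk. Each siQk library was above each siNC library, the means were 73.4 ± 7.26 RPKM for siNC against 96.6 ± 10.4 RPKM for siQk (SD, n = 3), and the log2 fold change 0.37 (SE 0.10) had an unadjusted p of 0.036 (edgeR, adjusted p of 1). Rfc3 (Entrez 69263, chromosome 5, 151642756 to 151651242, minus strand), a subunit of the loader replication factor C, had 21.8, 29.2 and 24.2 RPKM in siNC and 30.1, 39.3 and 31.5 RPKM in siQk. Its groups came close without overlap, with a log2 fold change of 0.40 (SE 0.16) and an unadjusted p of 0.0464 (edgeR, adjusted p of 1). Without siQk replicate 2 the estimates were 0.28 for Pcna and 0.27 for Rfc3.

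The other 4 loader subunits had estimates on both sides of 0. Rfc4 had 37.8, 39.2 and 39.3 RPKM in siNC and 42.3, 56.7 and 48.4 RPKM in siQk, with separate groups, tight siNC libraries and a log2 fold change of 0.32 (SE 0.12), or 0.20 without siQk replicate 2. Rfc1, the large subunit, had 40.2, 50.03 and 64.9 RPKM in siNC and 50.7, 47.5 and 52.5 RPKM in siQk, the highest value being that of siNC replicate 3. The estimate was -0.073 (SE 0.22) on the log2 scale, or 0.16 when that library was left out. Rfc2, the steadiest of the 41, had 97.4, 98.8 and 101 RPKM in siNC and 102, 95.4 and 113 RPKM in siQk and a log2 fold change of 0.035 (SE 0.085). Rfc5 had 48.1, 51.4 and 46.04 RPKM in siNC and 55.97, 31.6 and 50.4 RPKM in siQk. One library, siQk replicate 2, was low, so the log2 fold change was -0.10 (SE 0.26) with it and 0.11 without it.

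Replication protein A coats single-stranded DNA at the fork. Rpa2 (Entrez 19891, chromosome 4, 132768332 to 132778752, plus strand), its middle subunit, had 53.98, 65.9 and 50.2 RPKM in siNC and 72.4, 110 and 69.7 RPKM in siQk. siQk replicate 2 was far above the rest, and the groups were apart. The estimate was 0.55 (SE 0.23) on the log2 scale with an unadjusted p of 0.0226 (edgeR, adjusted p of 1), and 0.30 without siQk replicate 2. Rpa3 had 141, 121 and 125 RPKM in siNC and 152, 135 and 155 RPKM in siQk and Rpa1, the large subunit, had 47.5, 55.7 and 46.9 RPKM in siNC and 53.1, 59.7 and 52.2 RPKM in siQk. Both overlapped between groups, with log2 fold changes of 0.17 (SE 0.10) and 0.11 (SE 0.082). The Rpa3 estimate was -0.020 with GC and length trends removed and 0.10 without siNC replicate 2, and that of Rpa1 was 0.051 without siQk replicate 2. The 3 subunits of this complex thus had estimates of unequal size, a difference that was not tested.

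Okazaki fragments are trimmed by the flap endonuclease Fen1 and sealed by the ligase Lig1. Fen1 (Entrez 14156, chromosome 19, 10199132 to 10204169, minus strand) had 26.1, 30.1 and 19.8 RPKM in siNC and 30.2, 44.7 and 31.5 RPKM in siQk. The highest siNC library lay just under the lowest siQk library, and the log2 fold change 0.46 (SE 0.23) had an unadjusted p of 0.0497 (edgeR, adjusted p of 1). Without siQk replicate 2 it was 0.27. Lig1 had 30.9, 33.9 and 21.8 RPKM in siNC and 35.03, 31.6 and 39.2 RPKM in siQk, with siNC replicate 3 well below the others and a log2 fold change of 0.27 (SE 0.19), or 0.12 without that library.

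Genes of deoxynucleotide supply were centred near 0 (median log2 fold change 0.036), none of the 4 having separate groups. Rrm1, the large subunit of ribonucleotide reductase, had 102, 132 and 131 RPKM in siNC and 125, 111 and 142 RPKM in siQk and a log2 fold change of 0.025 (SE 0.17), or -0.093 without siNC replicate 1. Rrm2, its small subunit, whose level peaks in S phase, had 70.3, 108 and 100 RPKM in siNC and 74.3, 139 and 68.9 RPKM in siQk. siQk replicate 2 was the highest of the 6 while the other siQk libraries were among the lowest, so the log2 fold change of -0.0068 (SE 0.37) carried a wide error and was -0.40 without siQk replicate 2 and 0.17 without siQk replicate 3. Tyms, which makes thymidylate, had 30.03, 30.7 and 30.6 RPKM in siNC and 28.01, 32.1 and 35.9 RPKM in siQk and a log2 fold change of 0.047 (SE 0.11), or -0.053 without siQk replicate 3, with siNC libraries almost equal. Tk1, the salvage kinase for thymidine, had 80.1, 79.6 and 30.03 RPKM in siNC and 80.4, 42.2 and 87.9 RPKM in siQk. siNC replicate 3 and siQk replicate 2 were both far below the other 4 libraries, and the log2 fold change of 0.14 (SE 0.56) was -0.19 without the former and 0.40 without the latter.

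The cyclins E and E2F factors that drive entry to S phase were likewise centred near 0, with a median of 0.0066. Ccne1 had 11.5, 12.97 and 13.9 RPKM in siNC and 8.997, 20.3 and 9.30 RPKM in siQk, and Ccne2 had 10.7, 17.7 and 14.7 RPKM in siNC and 14.8, 20.2 and 16.9 RPKM in siQk. For Ccne1, siQk replicate 2 was the highest library and the other siQk libraries the lowest, with a log2 fold change of -0.023 (SE 0.39) that was -0.51 without siQk replicate 2 and 0.18 without siQk replicate 1, against 0.24 (SE 0.25) for Ccne2. The Ccne2 estimate was 0.062 without siNC replicate 1 and 0.39 without siNC replicate 2. E2f1 had 13.1, 18.6 and 11.1 RPKM in siNC and 11.8, 16.7 and 16.1 RPKM in siQk and E2f2 had 6.77, 10.9 and 4.97 RPKM in siNC and 4.53, 9.74 and 8.20 RPKM in siQk. Both activators overlapped across the groups, with log2 fold changes of 0.036 (SE 0.25) and -0.026 (SE 0.45), and siNC replicate 2 was the highest library for each. Without it they were 0.24 and 0.30, E2f1 was -0.094 without siNC replicate 3, and E2f2 was -0.26 without siQk replicate 2. Across the other 8 roles the median log2 fold change ran from 0.17 (replication protein A) to 0.40 (helicase activation). None of the 8 genes of nucleotide supply and G1/S control was at an unadjusted p under 0.05 or had separate groups, which so few genes would also give at the shares over all genes (1.20% and 5.35%), and their difference from the other roles was not tested.

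The last role covers genes that rebuild chromatin behind the fork. Slbp, the stem-loop binding protein needed for replication-dependent histone mRNA, had 65.9, 71.9 and 63.9 RPKM in siNC and 76.7, 90.5 and 85.6 RPKM in siQk. Its groups were apart, the means were 67.2 ± 4.14 RPKM for siNC against 84.3 ± 7.03 RPKM for siQk (SD, n = 3), and the log2 fold change 0.30 (SE 0.074) had an unadjusted p of 0.0642 (edgeR, adjusted p of 1). Chaf1b, a subunit of the histone chaperone CAF-1, had 15.4, 17.5 and 12.3 RPKM in siNC and 16.4, 27.9 and 16.4 RPKM in siQk. Its siQk mean was set by replicate 2, and the log2 fold change of 0.41 (SE 0.28) became 0.10 without it. Chaf1a, the large subunit, had 20.9, 24.2 and 15.7 RPKM in siNC and 21.3, 27.00 and 25.02 RPKM in siQk and a log2 fold change of 0.25 (SE 0.19), or 0.12 without siNC replicate 3, the lowest library. Dnmt1, the maintenance DNA methyltransferase, had 57.3, 64.4 and 46.4 RPKM in siNC and 63.9, 61.4 and 70.1 RPKM in siQk and a log2 fold change of 0.20 (SE 0.13), or 0.10 without siNC replicate 3. Uhrf1, which brings Dnmt1 to hemimethylated DNA, had 47.7, 55.9 and 26.3 RPKM in siNC and 45.5, 45.1 and 51.2 RPKM in siQk. siNC replicate 3 was far below the other libraries, and the Uhrf1 log2 fold change of 0.11 (SE 0.31) was -0.13 without it.

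The GC content of a gene's longest transcript moved with its level in single libraries. Over the 41 members, Spearman's rho between GC content and the deviation from the mean of 6 libraries was 0.56, 0.45 and -0.64 for siNC libraries 1 to 3 and 0.22, -0.027 and 0.20 for the siQk libraries. The same values over 12533 tested genes with a GC value were 0.56, 0.20 and -0.49 in siNC and 0.047, -0.15 and 0.056 in siQk. These correlations are across genes that share a library, and are given as descriptions. siNC replicates 1 and 3 were thus tilted in opposite directions, for the members as for all genes. The members ran from 34.2% GC (Rpa3) to 61.0% (Pold1) with a median of 49.3%, close to the 50.1% of all genes tested. With the trends on GC content and exon length removed in each library, an alternative chosen after seeing the data, the median log2 fold change of the members stayed at 0.21, 36 were above 0, 9 were at an unadjusted p under 0.05 and 0 were called.

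**Figure D4:**
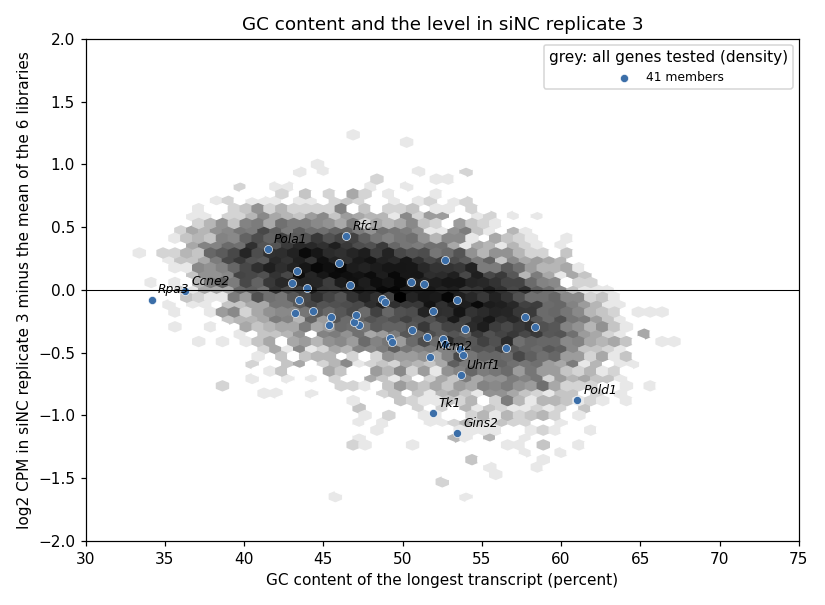
Level in siNC replicate 3 minus the mean of the 6 libraries (log2 CPM, y axis) against GC content of the longest transcript in percent (x axis). Blue points are the 41 members and grey shading is the density of all genes tested, and both slope downwards, with a rho of -0.64 over the members and -0.49 over all genes.

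Other genes of replication and of the cell cycle give the setting of the members. Their lists were chosen by known function, with earlier results of these data known. Of 46 tested genes of origin licensing and the replisome outside the members, 37 had a log2 fold change above 0, the median was 0.17, 2 were at an unadjusted p under 0.05, 11 had separate groups with siQk higher (5.35% of all genes tested did), and 0 were called. The 2 were Orc1, the cell cycle regulated subunit of the origin recognition complex, and Nasp, a chaperone of histone H3 and H4. Orc1 had 1.89, 3.05 and 2.04 RPKM in siNC and 3.79, 3.92 and 3.41 RPKM in siQk, with a log2 fold change of 0.65 (SE 0.20) and an unadjusted p of 0.0235 (edgeR, adjusted p of 1). Nasp had 23.3, 20.9 and 21.5 RPKM in siNC and 29.7, 26.6 and 31.6 RPKM in siQk, with a log2 fold change of 0.40 (SE 0.10) and an unadjusted p of 0.0265 (edgeR, adjusted p of 1). In both genes all siQk libraries lay above all siNC libraries. A further 3 names of these lists (Ticrr, Supt16 and Rad9a) stand under older symbols in the files and did not enter.

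Of 25 tested E2F, Rb and G1 cyclin regulators, 16 were above 0, at a median of 0.12 (log2 fold change), 0 were at an unadjusted p under 0.05 and 2 had separate groups with siQk higher, against 5.35% of all genes tested. That median was 0.018 without siQk replicate 2 and 0.038 without siNC replicate 1. The smallest p values belonged to E2f5, a repressive E2F with a log2 fold change of 0.42 (SE 0.24), and the phosphatase gene Cdc25a, with 0.28 (SE 0.13). E2f5 was at 0.23 without siQk replicate 2. Of 20 mitosis genes, 18 were above 0, with a median of 0.18, 0 at an unadjusted p under 0.05 and 1 with separate groups, a share near that over all genes. The median was 0.098 without siQk replicate 2, 0.10 without siNC replicate 1 and 0.26 without siNC replicate 3. Cenpf, a kinetochore protein at 0.51 (SE 0.38), and Kif20a, a kinesin of cytokinesis at 0.30 (SE 0.19), had the smallest p. Without siNC replicate 1 Cenpf was at 0.27, and without siQk replicate 2 Kif20a was at 0.15. By library, the median deviation of the mitosis genes was -0.29, -0.018 and 0.11 in siNC and -0.070, 0.24 and 0.11 in siQk (log2 CPM). siNC replicate 3 was thus high for mitosis genes and low for the members. The 46 replication genes outside the members stood at -0.069 in siNC replicate 3, against -0.20 in siNC replicate 1. Levels in siNC replicate 3 also fell with GC content over all genes (rho -0.49). These differences between lists were not tested.

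Of 13 checkpoint and repair genes, 11 were above 0, with a median of 0.080. Single libraries moved it, to -0.014 without siNC replicate 1, 0.031 without siQk replicate 3, 0.14 without siNC replicate 2, 0.14 without siQk replicate 1 and 0.20 without siNC replicate 3. Chek2, a checkpoint kinase, had a log2 fold change of -0.43 (SE 0.29) and the smallest p of this list, and was at -0.18 without siNC replicate 3. Cell cycle inhibitors and p53 targets had a median of -0.079, with 7 of 17 above 0, and a median of 0.035 without siNC replicate 1. Ccng1, a p53 target at 0.60 (SE 0.35), and Rrm2b, the p53-induced ribonucleotide reductase subunit at -0.61 (SE 0.42), had the smallest p. Ccng1 was at 0.32 without siQk replicate 2, and Rrm2b at -0.21 without siNC replicate 3 and at 0.011 with siQk replicate 2 left out as well. No gene of these 5 lists was called, and no list was tested against another.

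**Figure D5:**
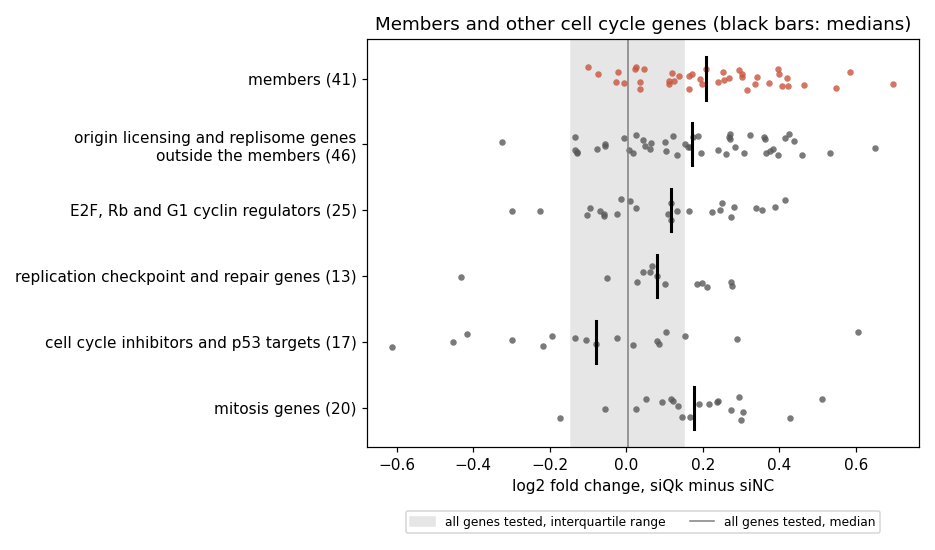
Log2 fold change of siQk over siNC for each tested gene of 6 groups, one row a group, with the number of genes in brackets and the median as a black bar. The grey band is the interquartile range of all genes tested, with their median near 0 as a line, and shows the spread of single genes, against which a list's median is not to be judged. The median bars run from -0.079 for the inhibitors and p53 targets to 0.21 for the members.

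Exon overlap with neighbours limits some of these values, because the library kit does not mark strand. In the GENCODE M21 annotation of GRCm38, exons of 13 members overlap another gene, and those of 10 overlap a protein-coding gene. These 10 were Ccne2, Chaf1a, Fen1, Gins2, Lig1, Mcm7, Rfc2, Rfc4, Rfc5 and Tk1. The overlaps ran from 44 bases (Rpa1 with Gm47300) to 4648 bases (Chaf1a with Ubxn6). Fen1 (130 bases with Tmem258, 1909 with the antisense gene Gm10143) and Gins2 (2758 with Gse1) are among the 8 at an unadjusted p under 0.05. Rfc4 (194 bases with Eif4a2), Slbp (474 with Gm10459) and Pole (78 with Gm15792) have separate groups. Reads of the partners could have entered the counts of these genes, which was not tested. The other 6 of the 8, Cdc6, Mcm3, Mcm4, Pcna, Rfc3 and Rpa2, overlap no annotated exon of another gene.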

How the data were processed

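NSC-34 cells in 2 groups of 3 libraries (siNC and siQk) were grouped by the treatment in their labels. Poly-A selected RNA went into TruSeq version 2 libraries, a kit that keeps no strand, and read pairs were aligned with OLego (mm10, from the submitters' processing notes) and counted with Quantas. The deposited files give, per gene, an expected count, a summed exon length and an RPKM value that the authors derived from the count, the exon length and the library total.

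Expected counts were rounded. Totals were 43000503 to 53565950 counts, TMM factors 0.957 to 1.02, and genes with a mean log2 CPM above 0 were kept (12665 of 23038). At such depth the spread between 3 libraries sets the precision (common biological coefficient of variation 0.231). siQk was tested against siNC by quasi-likelihood (F test, edgeR 4.0.16, R 4.3.3) with the study's thresholds of p under 0.01 and Benjamini-Hochberg adjusted p under 0.1, adjusted over all genes kept. "Unadjusted p" is from the same fit. Standard errors are from TMM-scaled log2 CPM (prior count 2). For single values the two-sided exact permutation test of 3 against 3 cannot go below 0.1, so it is not printed per gene. No pair of libraries agreed within sampling noise. P-values set the difference between groups against the spread between these libraries, with the variance of each gene moderated over all genes. In siQk that spread may include differences between siRNAs.

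The members and gene lists were chosen with earlier results of these data known. Named are Qk, all 41 members, and the 2 genes of smallest p in each of 5 lists. One gene named by this rule is not reported here. Overlapping neighbours, marker genes and genes outside this rule were chosen after values were seen. Positions are from GENCODE M21 (GRCm38), promoter windows from RefSeq (GRCm38.p6). The study names the genome in 2 ways, and the files carry no coordinates. The script was tested on simulated data. Alternatives were DESeq2 size factors and total counts as scalings, no filter, filterByExpr at a minimum count of 10, the edgeR exact test, DESeq2 1.42.0, a replicate block, and leaving out each library. Removal of GC and length trends (loess, span 0.5) and leaving out siNC replicate 3 with siQk replicate 2 were added after seeing the data.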

Additional observations from a re-analysis of the deposited data

How the results depend on the processing

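Over the alternatives run, 0 members were called under each, and the lowest adjusted p of any member was 0.792. Over all genes, 5 were called by the edgeR exact test and 19 by DESeq2, and 0 to 1 when a library was left out. Members at an unadjusted p under 0.05 numbered 2 to 9 when a library was left out, against 2.3% to 4.43% of all genes tested. With both siNC replicate 3 and siQk replicate 2 left out there were 3, of which 2 were higher in siQk, against 6.19% of all genes. The median of the members was 0.17 to 0.31 with a library left out, the highest without siNC replicate 2. Qk ran from -3.19 to -2.67 and had an adjusted p of 0.125 without siNC replicate 1 (log2 fold change -3.09), against 6.15e-23 (DESeq2) to 0.0936 (without siQk replicate 2) under the others.

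Several members, and Rrm2b outside them, changed sign. Leaving out a library gave -0.072 to 0.089 for Cdt1, -0.093 to 0.11 for Rrm1, -0.40 to 0.17 for Rrm2, -0.053 to 0.13 for Tyms, -0.19 to 0.40 for Tk1, -0.061 to 0.40 for Pola1, -0.23 to 0.16 for Rfc1, -0.043 to 0.089 for Rfc2, -0.26 to 0.11 for Rfc5, -0.51 to 0.18 for Ccne1, -0.094 to 0.24 for E2f1, -0.26 to 0.30 for E2f2 and -0.13 to 0.31 for Uhrf1. With both named libraries left out, Cdt1 was at -0.0022, Rfc1 at 0.20, Rfc5 at 0.10, E2f1 at -0.18, Uhrf1 at -0.094 and Rrm2b at 0.011. Scaling by total counts gave 0.022 for Rrm2 and 0.0077 for Ccne1. Removing GC and length trends gave -0.020 for Rpa3 and 0.048 for E2f2. The cause was not tested.

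Same-numbered libraries deviated together by correlations of 0.21, 0.018 and -0.17, so the numbers were not taken as pairs. With a replicate block 0 members were called, 7 were at an unadjusted p under 0.05 and the median was 0.21. Precision was set by the spread between 3 libraries a group.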
